A study of Mus musculus with 6 samples.

Results

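The 9 genes described here are the EGR, NR4A and IER early genes Egr1, Egr2, Egr3, Nr4a1, Nr4a2, Nr4a3, Ier2, Ier3 and Ier5. They were taken by name from the 55421 genes of the deposited expression table, and all 9 were found. Early genes are transcribed within minutes of a stimulus, without new protein synthesis, and their mRNAs are usually short-lived. The signals that switch them on run through the RAS-ERK kinases to serum response factor and through calcium to NFAT, MEF2 and CREB. In B cells, ligation of the antigen receptor induces EGR and NR4A genes strongly, and reporters of Nr4a1 are widely used to read antigen receptor signalling.

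RNA-seq had been carried out on activated B cells from mouse spleen, in 2 groups of 3 libraries. The WT libraries carry the genotype CD21-cre, and the hnRNPL-deficient libraries carry hnRNPL F/F together with CD21-cre, so that both groups express the Cre recombinase. hnRNPL is an RNA-binding protein that regulates alternative splicing. All cells had been cultured for 24 h with 5 µg/ml LPS, a Toll-like receptor 4 ligand, and 5 ng/ml IL-4. Per the methods, both groups also carry the Rosa mT/mG reporter, which turns on GFP where Cre is active, and GFP-positive cells were sorted, so that the cells analysed had seen Cre. CD21-cre acts mainly in peripheral B cells. Values at rest or in the first hours after stimulation were not analysed here, so every level below is a level at 24 h. A figure legend of the study gives 3 mice per group for the RNA-seq. Per the methods, mice of both sexes older than 6 weeks were used. The labels do not tie a library to a mouse.

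The libraries held 40395186 to 75180749 reads on genes and detected 24009 to 26283 genes. Hnrnpl (chr7:28808541-28822266, mm10), the targeted gene, ranged from 24174 to 25580 normalized counts in WT but from 1297 to 2178 in hnRNPL-deficient libraries, or 6.74% of the WT mean. A normalized count is a read count divided by the size factor of its library. The libraries were rich in B cell transcripts, and the summed level of 6 B cell markers spanned 246923 to 321999 normalized counts in WT and 249461 to 300396 in hnRNPL-deficient libraries. Summed levels of 5 T cell markers were 5.80 to 9.51 in WT and 3.03 to 11.7 in hnRNPL-deficient libraries. Those of 3 NK cell markers were 0 to 1.53 and 2.705 to 4.11, and those of 3 red cell markers were 5.19 to 18.6 and 16.2 to 27.3. The sum of 6 myeloid markers was higher in hnRNPL-deficient cells, at 1239 to 1382 against 260 to 331. Nearly all of it came from Adgre1, which encodes the F4/80 antigen and had a log2 fold change of 2.24. Of the other defining myeloid markers, S100a8 and S100a9 were at 0 in every library and Lyz2 was at 0 in all but hnRNPL-deficient library 2, at 2.02. Csf1r was detected at 1.73 to 5.80 in WT and 2.02 to 6.85 in hnRNPL-deficient libraries, and Itgam at 6.05 to 18.6 and 5.48 to 18.03 (log2 fold change -0.07). The part of Adgre1-expressing cells in the results below was not tested. In bulk RNA, fewer expressing cells and less RNA per cell cannot be told apart.

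At 24 h the 9 genes did not move together between the groups. Egr3 and Nr4a3 were lower in hnRNPL-deficient cells, at 44.2% and 38.3% of the WT mean. No member passed the test for higher expression, although Egr1 lay higher in every hnRNPL-deficient library than in any WT library. Expression was tested with limma on log2(normalized count + 1) for the 17640 genes whose mean over the libraries reached 10 normalized counts. A gene was called if it changed at least 1.5-fold and its p, adjusted over all tested genes after Benjamini and Hochberg, lay under 0.1. Of the 9 genes, 8 passed the filter, and Nr4a2 did not. Of all tested genes, 4.08% were called lower and 7.28% were called higher. Among the 8 tested members 2 were called lower and 0 higher by limma, while 3 were lower and 2 higher at an unadjusted p under 0.05, beside 12.9% and 14.4% of all tested genes. edgeR and DESeq2, run on the reads of 5 libraries, each called 3 lower and 0 higher. Of all genes, edgeR called 3.28% lower and 6.49% higher, and DESeq2 called 4.09% lower and 6.69% higher. Groups did not overlap for 1 member that was higher and 2 that were lower, beside 17.7% and 16.3% of all tested genes. The median log2 fold change was -0.22 over the 8 members and -0.03 over all tested genes.

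**Figure D1:**
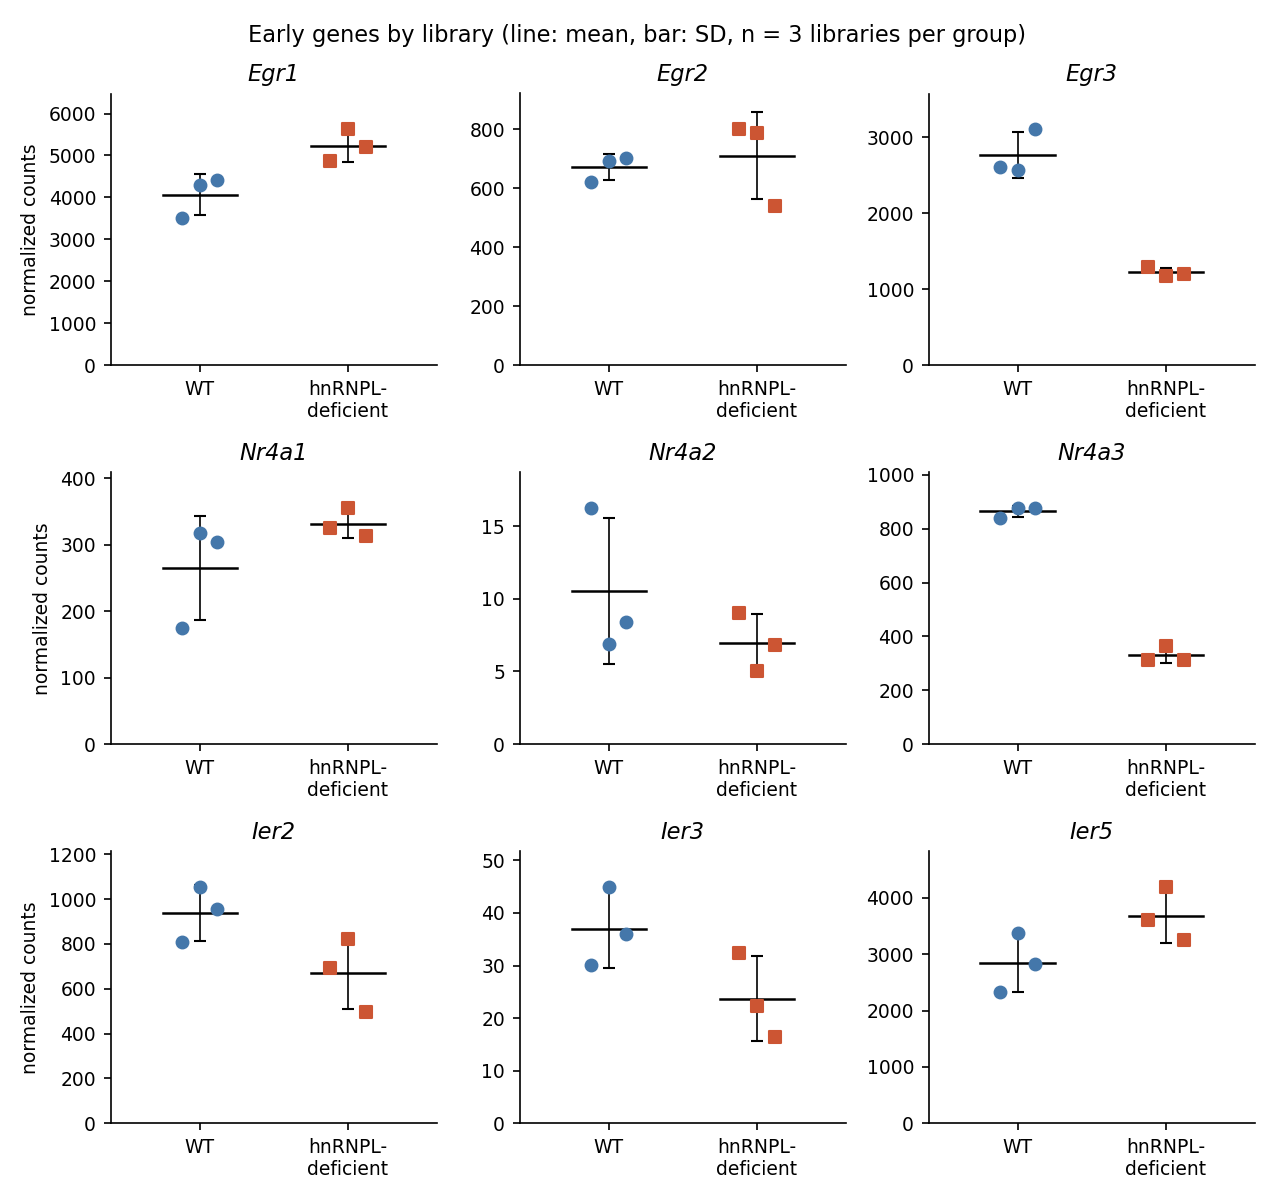
Normalized counts (vertical axes, each from 0) of the 9 early genes in the 3 WT (circles) and 3 hnRNPL-deficient (squares) libraries; lines are group means and bars are SDs. The groups stand apart for Egr3 and Nr4a3 (lower) and Egr1 (higher), and overlap for the other 6 genes.

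The EGR genes encode zinc finger transcription factors that bind GC-rich promoter sites. Egr1 (chr18:34859823-34864984), the most abundant of them here, measured 3501, 4286 and 4409 normalized counts (WT libraries 1 to 3) against 4870, 5633 and 5193 (hnRNPL-deficient libraries 1 to 3); values follow in this order throughout. All hnRNPL-deficient values lay above all WT values, and WT library 1 was the lowest of the 6. The means were 4065 ± 492 and 5232 ± 383 (SD, n = 3 each), a 1.29-fold difference. The log2 fold change was 0.37 (SE 0.117, 95% interval 0.10 to 0.64) with a limma adjusted p of 0.0810, so that Egr1 passed the p threshold but not the fold threshold and was not called. Without WT library 1 the log2 fold change was 0.26, and with any 1 library left out the limma adjusted p rose to between 0.114 and 0.213. It was also above the threshold with no filter (0.113) and with no mean-variance trend (0.167). On 5 libraries the adjusted p was 0.177 in edgeR and 0.205 in DESeq2. The limma adjusted p stayed under the threshold with equal library totals (0.0763), quantile normalization (0.0573) and a block for replicate number (0.0178). In all alternatives the log2 fold change was at most 0.46, under the fold threshold.

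Egr2 (chr10:67535475-67542188), which with Egr3 is known to restrain lymphocyte activation, had 622, 694 and 704 normalized counts in WT and 801, 789 and 540 in hnRNPL-deficient libraries. The hnRNPL-deficient libraries fell on both sides of the WT libraries, and library 3 was the lowest. The means were 673 ± 44.6 and 710.01 ± 147, and the log2 fold change was 0.06 (SE 0.175, interval -0.34 to 0.45, limma adjusted p = 0.862). The sign of this change was not fixed by the data, since it became -0.000104 without WT library 1, -0.043 without hnRNPL-deficient library 1 and -0.031 without hnRNPL-deficient library 2.

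Egr3 (chr14:70077203-70082614) reached 2611, 2569 and 3109 normalized counts in WT but 1286, 1171 and 1206 in hnRNPL-deficient libraries. The lowest WT library held more than 1.5 times the Egr3 of the highest hnRNPL-deficient library. The means were 2763 ± 301 and 1221 ± 58.6, which is 2.26-fold lower in hnRNPL-deficient cells. Egr3 fell by 1.17 on the log2 scale (SE 0.114, interval -1.43 to -0.91, limma adjusted p = 8.28e-04), and with any 1 library left out the log2 fold change stayed between -1.22 and -1.09. Egr1 and Egr3 thus lay on opposite sides of their WT levels in the same hnRNPL-deficient libraries. Ratios of genes within a library were taken after 1 was added to each normalized count. The ratio of Egr1 to Egr3 was 1.34, 1.67 and 1.42 in WT and 3.79, 4.81 and 4.30 in hnRNPL-deficient cells, 2.91-fold higher. The ratio of Egr2 to Egr3 was 0.239, 0.271 and 0.227 in WT and 0.624, 0.674 and 0.448 in hnRNPL-deficient cells, 2.34-fold higher. Neither ratio overlapped between the groups, and both gave p = 0.1 in a two-sided exact permutation test, the smallest p that 3 against 3 libraries allow (0.15 when adjusted over the 6 ratios tested). For Egr1 to Egr3 this outcome was fixed in advance, since each gene was already separated between the groups, in opposite directions. The ratio of Egr2 to Egr3 mostly restates the fall of Egr3, as Egr2 itself overlapped between the groups.

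The NR4A genes encode orphan nuclear receptors that bind DNA without a known hormone. Promoter sequences in RefSeq (GRCm38.p6), spanning 250 bases before to 50 bases after the start, were at hand for 6 of the 9 members, namely Egr2, Nr4a1, Nr4a2, Nr4a3, Ier3 and Ier5, in 10 windows. The core of the cAMP response element, TGACG on either strand, to which CREB binds, was found in 20.8% of 32851 windows of 300 bases. The windows of Nr4a1, Nr4a2 and Nr4a3 held 4 copies each, and 0.231% of all windows held at least 4, a limit chosen after the counts were seen. Among the windows of Egr2, that at chr10:67537619-67537918 held 2 copies and a CArG box, the site of serum response factor, which 1.63% of all windows hold. The overlapping windows at chr10:67537620-67537919 and chr10:67537680-67537979 held the same copies and CArG box. The window at chr10:67537316-67537615 held another CArG box without the core, and that at chr10:67535249-67535548 held neither. The stretches upstream of annotated transcripts are shown for Nr4a1 and Nr4a3, since these members share the core and yet differed in their change, and for Egr2. Capitals mark TGACG or its reverse complement, and each run is written 5′ to 3′ on the plus strand.
Nr4a1, chr15:101266596-101266845: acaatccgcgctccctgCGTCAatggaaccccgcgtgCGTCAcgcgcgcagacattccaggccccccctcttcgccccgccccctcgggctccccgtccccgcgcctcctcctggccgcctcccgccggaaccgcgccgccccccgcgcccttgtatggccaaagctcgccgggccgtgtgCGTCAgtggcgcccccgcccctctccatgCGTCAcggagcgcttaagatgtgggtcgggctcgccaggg
Nr4a3, chr4:48045055-48045152: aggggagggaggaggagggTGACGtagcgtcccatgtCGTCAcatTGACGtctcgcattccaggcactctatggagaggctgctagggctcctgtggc
Egr2, chr10:67537619-67537868: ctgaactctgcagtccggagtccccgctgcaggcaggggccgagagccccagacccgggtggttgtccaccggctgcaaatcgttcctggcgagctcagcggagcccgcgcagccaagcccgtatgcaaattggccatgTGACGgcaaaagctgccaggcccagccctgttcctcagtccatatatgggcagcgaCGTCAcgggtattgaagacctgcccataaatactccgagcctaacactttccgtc
The run for Nr4a3 is 98 bases long and shows 3 of its 4 copies, because an annotated exon begins after it. The full element TGACGTCA, which contains the core on both strands, was in 1.79% of windows and in no member's. AAAGGTCA, the element that NR4A monomers bind, was in 1.51% of windows and likewise in no member's. GCGNGGGCG, an EGR site, was in 5.55% of windows, those of Nr4a1 and Nr4a2 among them. TATAA, searched on the strand of the gene alone, was in 17.5% of windows, including windows of Egr2, Ier3 and Ier5. These matches describe the letters of the windows, and binding was not measured.

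Nr4a1 (chr15:101254269-101274795), also known as Nur77, reached 175, 317 and 304 normalized counts in WT against 325, 355 and 314 in hnRNPL-deficient libraries. WT library 1 stood well below the other 5, and WT library 2 lay above hnRNPL-deficient library 3. The means were 265 ± 78.4 and 331 ± 21.6, with a log2 fold change of 0.37 (SE 0.240, interval -0.18 to 0.91, limma adjusted p = 0.365). Without WT library 1 the log2 fold change was 0.09. Nr4a2 (chr2:57106830-57124003), or Nurr1, was near the limit of detection, with 14, 8 and 11 reads in WT and 10, 5 and 5 reads in hnRNPL-deficient libraries. These correspond to 16.2, 6.92 and 8.41 against 9.02, 5.05 and 6.85 normalized counts, which overlap. With the filter removed and 31449 genes tested, its log2 fold change was -0.48 (SE 0.533, limma adjusted p = 0.684), so that no difference was detectable at this depth.

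Nr4a3 (chr4:48045153-48086447), or NOR1, had 841, 877 and 877 normalized counts in WT and 314, 365 and 314 in hnRNPL-deficient libraries. The groups were well separated and each was tight. The means were 865 ± 20.5 and 331 ± 29.8, a 2.61-fold lower level in hnRNPL-deficient cells. Nr4a3 fell by 1.39 on the log2 scale (SE 0.132, interval -1.69 to -1.09, limma adjusted p = 8.08e-04), the largest change among the tested members, and stayed between -1.46 and -1.35 with any 1 library left out. The ratio of Nr4a3 to Nr4a1 within a library was 4.78, 2.76 and 2.88 in WT and 0.967, 1.03 and 1.00 in hnRNPL-deficient cells. The ratio was 3.37-fold lower in hnRNPL-deficient cells (two-sided exact permutation p = 0.1, adjusted 0.15). It mostly restates the fall of Nr4a3, as Nr4a1 itself overlapped between the groups. The ratio of Nr4a2 to Nr4a1 overlapped between the groups, with a log2 difference of -0.84 (exact permutation p = 0.3, adjusted 0.36) that ran from -0.24 without WT library 1 to -1.22 without WT library 2.

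**Figure D2:**
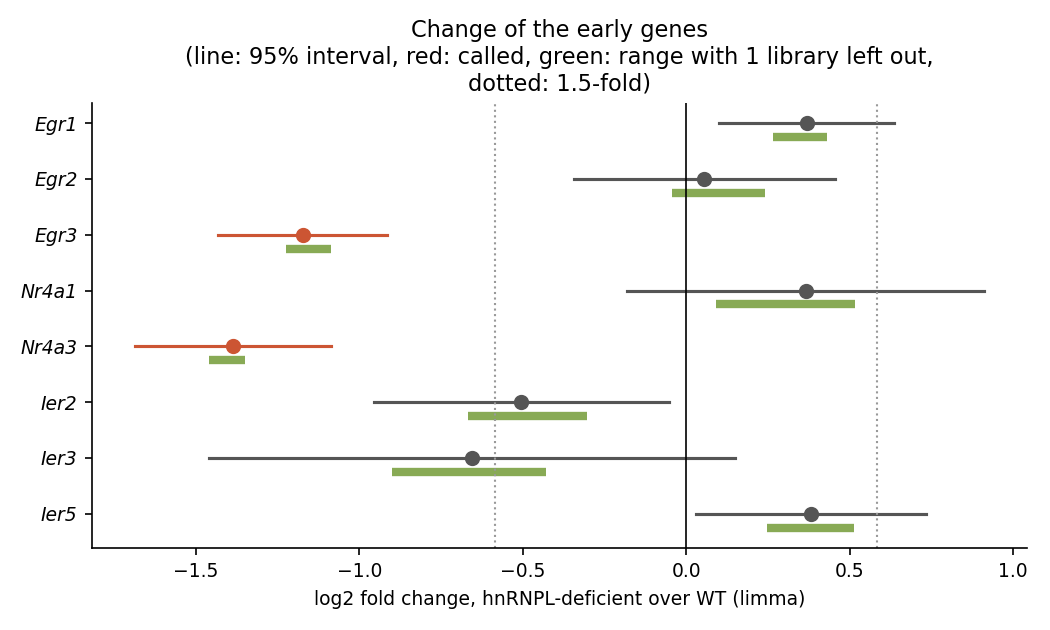
Log2 fold change, hnRNPL-deficient over WT, of the 8 tested early genes with the 95% interval from limma (lines), the range with 1 library left out (green bars) and the 1.5-fold limits (dotted). Egr3 (-1.17) and Nr4a3 (-1.39), in red, were called, and the intervals of Egr2, Nr4a1 and Ier3 include 0.

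IER genes are named for their immediate early response and, apart from this, differ in what their products do. Ier2 and Ier5 belong to one family of nuclear proteins, and Ier5 is known to act with HSF1 and protein phosphatase 2A (PP2A). Ier2 (chr8:84661331-84662852) had 807, 1054 and 956 normalized counts in WT and 694, 824 and 498 in hnRNPL-deficient libraries. hnRNPL-deficient library 2 lay above WT library 1, and library 3 was the lowest. The means were 939 ± 125 and 672 ± 164, and the log2 fold change was -0.50 (SE 0.198, interval -0.96 to -0.05, limma adjusted p = 0.143). Ier2 was not called with all 6 libraries. It was called lower without hnRNPL-deficient library 2, with a log2 fold change of -0.67 (limma adjusted p = 0.0855). The count tests on 5 libraries, which omit the same library, also called it, at -0.62 in edgeR (adjusted p = 0.0925) and -0.64 in DESeq2 (adjusted p = 0.0308). Without hnRNPL-deficient library 3 the change was -0.30.

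Ier3 (chr17:35821684-35822923), also known as IEX-1, which modulates apoptosis, had 30.2, 44.96 and 35.9 normalized counts in WT and 32.5, 22.2 and 16.4 in hnRNPL-deficient libraries. hnRNPL-deficient library 1 fell within the WT values and the other two fell below them. The means were 37.0 ± 7.45 and 23.7 ± 8.11, with a log2 fold change of -0.66 (SE 0.352, interval -1.46 to 0.15, limma adjusted p = 0.271). It ran from -0.90 without hnRNPL-deficient library 1 to -0.43 without hnRNPL-deficient library 3. Ier5 (chr1:155096361-155099636) had 2330.3, 3368 and 2825 normalized counts in WT and 3603, 4194 and 3248 in hnRNPL-deficient libraries. WT library 2 lay above hnRNPL-deficient library 3, so that the groups overlapped. The means were 2841 ± 519 and 3682 ± 478, with a log2 fold change of 0.38 (SE 0.154, interval 0.03 to 0.73, limma adjusted p = 0.151). It ran from 0.25 without WT library 1 to 0.51 without WT library 2. The ratio of Ier5 to Ier2 did not overlap, at 2.89, 3.19 and 2.95 in WT and 5.18, 5.09 and 6.52 in hnRNPL-deficient cells (1.85-fold higher, two-sided exact permutation p = 0.1, adjusted 0.15). The ratio of Ier3 to Ier2 overlapped, with a log2 difference of -0.15 (exact permutation p = 0.7, adjusted 0.70), and turned to 0.030 without hnRNPL-deficient library 2.

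**Figure D3:**
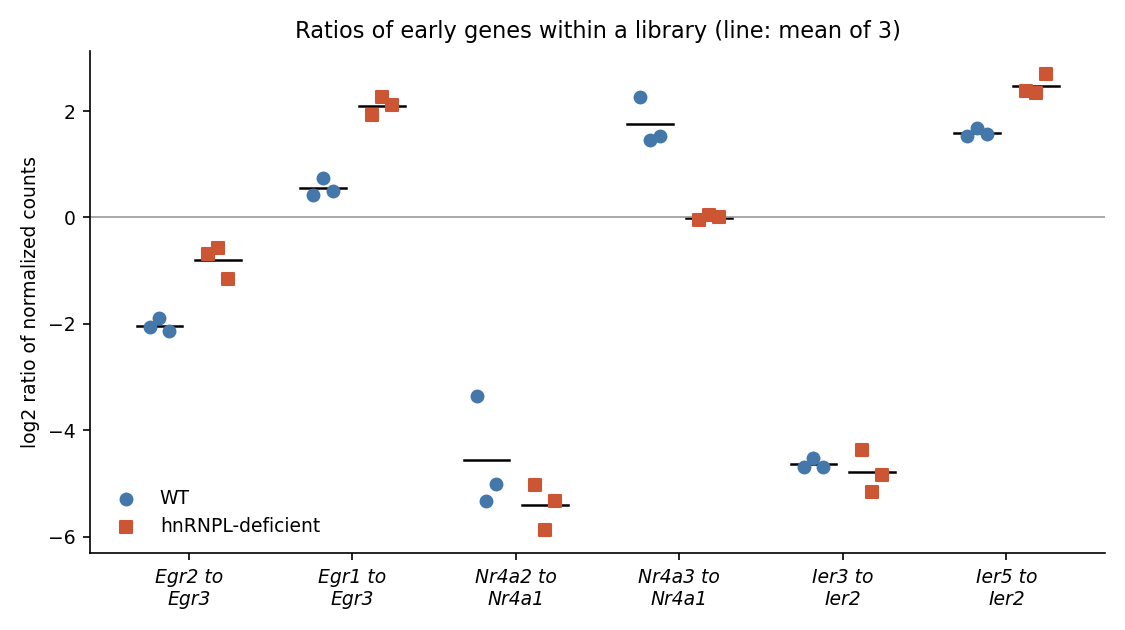
Log2 ratio of normalized counts of 2 early genes within the same library (vertical axis) for 6 pairs, in WT (circles) and hnRNPL-deficient (squares) libraries; lines are means of 3. The groups stand apart for Egr2 to Egr3, Egr1 to Egr3, Nr4a3 to Nr4a1 and Ier5 to Ier2, and overlap for Nr4a2 to Nr4a1 and Ier3 to Ier2.

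Single libraries recurred at the ends of these ranges. WT library 1 was the lowest WT library for 7 of the 9 genes, and the exceptions were Egr3 and Nr4a2. hnRNPL-deficient library 3, the library with the fewest reads, was the lowest of its group for 5 genes, namely Egr2, Nr4a1, Ier2, Ier3 and Ier5. hnRNPL-deficient library 2 was the highest of its group for 5 genes, namely Egr1, Nr4a1, Nr4a3, Ier2 and Ier5. No share over all tested genes stands beside these counts, so they only describe the members. Whether read depth had a part in them was not tested.

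To set levels of different genes side by side, normalized counts were divided by the length of the annotated exons. In WT cells Egr1 stood highest, at 907 ± 110 normalized counts per kb, followed by Ier5 at 867 ± 158, and these neighbours overlapped. Egr3 at 627 ± 68.2 and Ier2 at 617 ± 81.9 came next and also overlapped. Below them, without overlap between neighbours, came Egr2 at 198 ± 13.1, Nr4a3 at 144 ± 3.43, Nr4a1 at 75.6 ± 22.3, Ier3 at 32.7 ± 6.59 and Nr4a2 at 2.59 ± 1.23. In hnRNPL-deficient cells the order changed at 2 places. Ier2, at 441 ± 108 per kb, lay above Egr3 at 277 ± 13.3, and Nr4a1, at 94.4 ± 6.14, lay above Nr4a3 at 55.3 ± 4.98. Egr1 at 1167 ± 85.4 and Ier5 at 1124 ± 146 again led the order and overlapped, while Egr2 at 209 ± 43.4, Ier3 at 21.0 ± 7.17 and Nr4a2 at 1.72 ± 0.489 kept their ranks and did not overlap their neighbours.

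**Figure D4:**
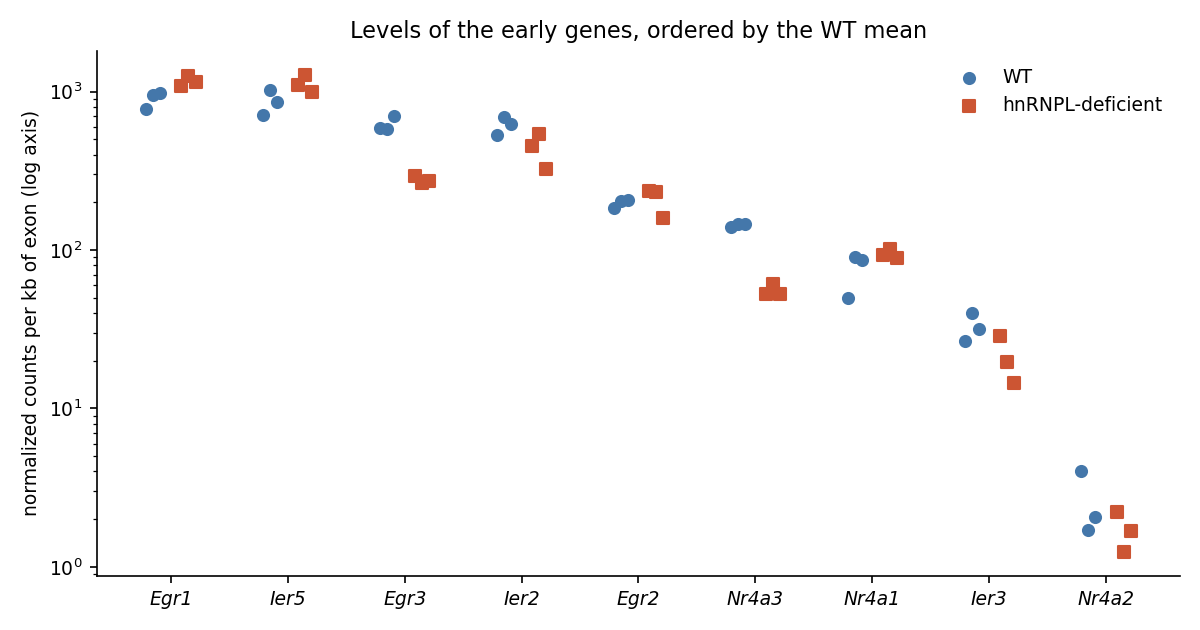
Normalized counts per kb of exon (log axis) of the 9 early genes, ordered by the WT mean, in 3 WT (circles) and 3 hnRNPL-deficient (squares) libraries. Egr3 drops from 627 to 277 per kb and Nr4a3 from 144 to 55.3 per kb, below Ier2 and Nr4a1 respectively.

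The genes that act before and beside the early genes were examined as 8 lists of 98 genes in all, 96 of which were tested. Of these, limma called 8 higher and 7 lower, beside 7.28% and 4.08% of all tested genes. The median log2 fold change was -0.06, and -0.03 over all tested genes. Few of the upstream genes were called. Of the RAS-ERK cascade, from the exchange factors Sos1 and Rasgrp1 to the kinases ERK1 and ERK2, 15 genes were tested and 0 were called in either direction by limma, edgeR or DESeq2 (1 lower and 0 higher at an unadjusted p under 0.05; median log2 fold change -0.04). Of serum response factor and its cofactors, 6 genes were tested and 0 were called by any of these tests (2 lower and 0 higher at an unadjusted p under 0.05; median 0.03). Srf itself, which drives EGR and FOS promoters, had 4588, 4486 and 4864 normalized counts in WT and 3567, 3762 and 3435 in hnRNPL-deficient libraries. The groups did not overlap, and the log2 fold change was -0.37 (limma adjusted p = 0.0344), under the fold threshold, with an adjusted p of 0.0570 to 0.135 when 1 library was left out. Of the calcium, NFAT, MEF2 and CREB genes, 15 were tested and 1 was called higher (median 0.05). This was Mef2c, a transcription factor needed for B cell proliferation, which rose by 0.61 on the log2 scale (limma adjusted p = 0.0105) but missed the fold threshold without WT library 3 (0.57) or hnRNPL-deficient library 3 (0.54).

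Inhibitors of ERK signalling included called genes on the higher side. Of 9 tested, 3 were called higher and 0 lower, beside 7.28% and 4.08% of all tested genes, 5 were higher and 0 lower at an unadjusted p under 0.05, and the median log2 fold change was 0.32. edgeR and DESeq2 also called 3 higher and 0 lower. Dusp6, the ERK-specific phosphatase, had 426, 460 and 512 normalized counts in WT and 1300.03, 1067 and 1166 in hnRNPL-deficient libraries, without overlap. It rose by 1.34 on the log2 scale (SE 0.135, limma adjusted p = 0.00105). Dusp5, a nuclear ERK phosphatase, had 597, 644 and 577 in WT and 1124, 1235 and 962 in hnRNPL-deficient libraries, and rose by 0.86 (SE 0.134, limma adjusted p = 0.00613). Both were called with any 1 library left out. Spred1, a RAS inhibitor, rose by 0.62 (limma adjusted p = 0.0737), but lost its call when WT library 2 (0.64) or 3 (0.44) or hnRNPL-deficient library 1 (0.53) or 3 (0.58) was left out. Other brakes had log2 fold changes below 0 that were not called, namely Dusp1 (-0.33, limma adjusted p = 0.512), Dusp2 (-0.16, limma adjusted p = 0.514) and Spry1 (-0.50, limma adjusted p = 0.625).

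Partners of the members' own products showed few called changes. Of the EGR family and its NAB corepressors, 2 of 3 genes were tested and 0 were called by limma, edgeR or DESeq2 (1 lower and 0 higher at an unadjusted p under 0.05). Egr4 was at 0 in all libraries but WT library 2, which had 2 reads. Nab1 had a log2 fold change of -0.38 (limma adjusted p = 0.138; -0.24 without WT library 1) and Nab2 one of -0.07 (limma adjusted p = 0.825), which turned to 0.017 when WT library 2 was left out and to 0.049 when hnRNPL-deficient library 3 was. Of the retinoid X receptors, which pair with Nr4a1 and Nr4a2, 2 of 3 were tested and 0 were called by limma, although both were lower at an unadjusted p under 0.05. Rxra had a log2 fold change of -0.51 (limma adjusted p = 0.137) and Rxrb one of -0.58 (limma adjusted p = 0.121), and Rxrg was at 0 in every library. On 5 libraries edgeR called 1 and DESeq2 called 2 of them lower. Of 12 genes for PP2A subunits, HSF1 with its targets and the Ier5 relative Ier5l, 1 was called lower and 0 higher (median -0.17). This was Hsph1, a heat shock protein of the HSP110 family, which fell by 0.68 on the log2 scale (limma adjusted p = 0.0168) and by 0.58, under the fold threshold, without WT library 1. At an unadjusted p under 0.05 in limma, 3 of the 12 were lower and 0 higher, beside 12.9% and 14.4% of all tested genes. On 5 libraries edgeR called 1 of the 12 lower and DESeq2 called 2 lower.

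Of 35 other early genes limma called 4 higher and 6 lower, beside 7.28% and 4.08% of all tested genes. Their median log2 fold change was -0.14. On 5 libraries the balance turned, with 6 higher and 4 lower in edgeR and 5 higher and 4 lower in DESeq2. Among those that rose, Rgs1 had 4.64, 3.46 and 4.59 normalized counts in WT and 25.2, 27.3 and 26.04 in hnRNPL-deficient libraries (log2 fold change 2.39, limma adjusted p = 0.00550). Rgs2 had 34.8, 45.8 and 58.9 in WT and 156, 161 and 217 in hnRNPL-deficient libraries (1.93, limma adjusted p = 0.00403). Both encode regulators that shorten G protein signalling, and Btg2, an antiproliferative gene, rose as well (0.74, limma adjusted p = 0.0198). Among those that fell, Fosb, an AP-1 subunit, had 77.8, 155 and 223 in WT and 22.5, 60.6 and 45.2 in hnRNPL-deficient libraries (-1.78, limma adjusted p = 0.0430). Klf4, which restrains B cell proliferation, had 48.7, 63.98 and 64.2 in WT and 21.6, 24.2 and 30.2 in hnRNPL-deficient libraries (-1.19, limma adjusted p = 0.0336). Socs3, a cytokine signalling inhibitor, fell by 0.79 (limma adjusted p = 0.0334), the stress factor Atf3 by 0.75 (limma adjusted p = 0.0309), and the small MAF protein gene Maff by 0.69 (limma adjusted p = 0.0981). Each of these 5 lower calls was lost when some single libraries were left out, while the direction stayed. Fosb lost its call when WT library 2 (-1.71) or 3 (-1.45) or hnRNPL-deficient library 1 (-1.39) was left out, and Klf4 when WT library 2 (-1.13) or 3 (-1.12) was. Socs3 was not called without WT library 3 (-0.78) or hnRNPL-deficient library 3 (-0.57), nor Atf3 without WT library 2 (-0.71) or hnRNPL-deficient library 2 (-0.58). Maff lost its call whichever of the 6 libraries was left out (-0.78 to -0.58). By contrast, Egr3 and Nr4a3 were called lower whichever library was left out.

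**Figure D5:**
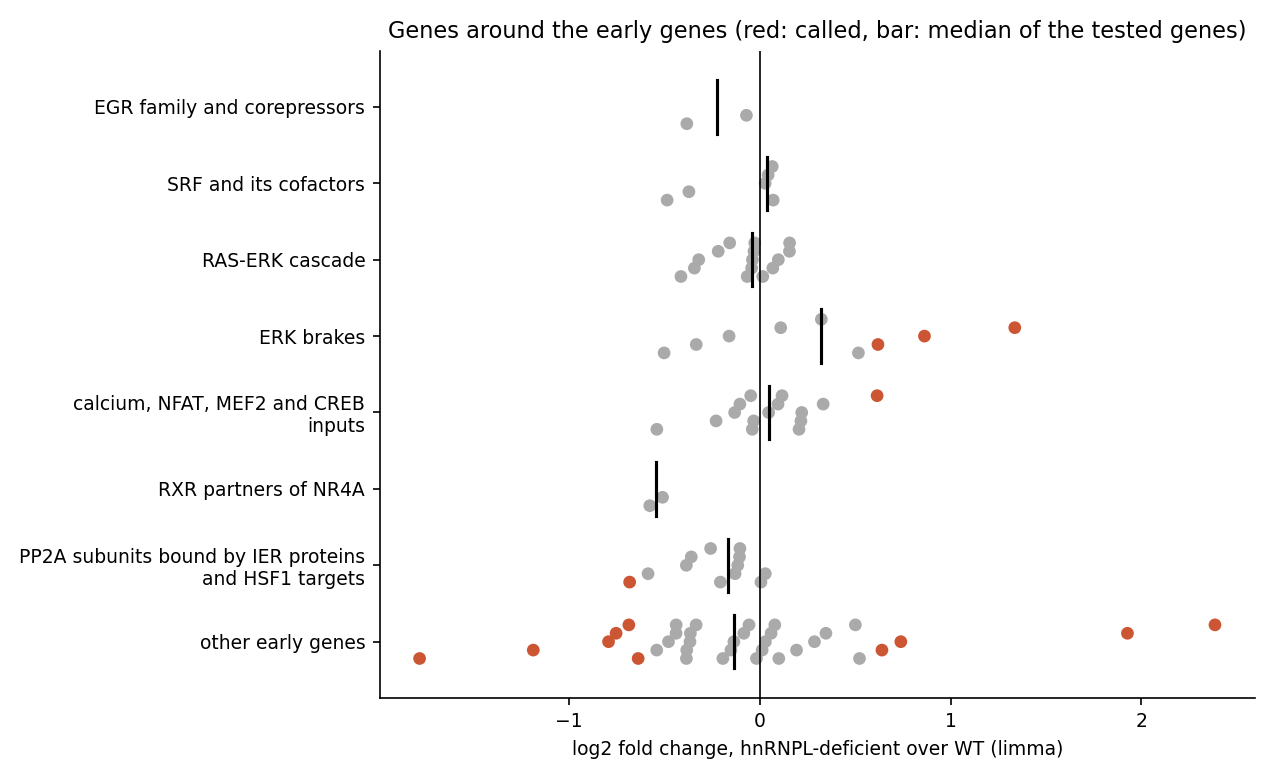
Log2 fold change, hnRNPL-deficient over WT, of each tested gene in 8 lists of genes around the EGR, NR4A and IER genes; red points were called and bars are list medians. Of the 9 ERK brakes, 3 were called higher by limma (list median 0.32) and lie at the right. The other early genes spread to both sides (4 higher and 6 lower of 35 by limma).

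Short-lived early mRNAs often carry AU-rich elements in the 3′ untranslated region, and the pentamer ATTTA is their core. Egr3 had 7 copies in 2645 bases, a number that 13.9% of 11415 tested genes reach. Nr4a3 had 5 in 3095 bases and Ier3 had 5 in 613 bases, a number that 22.8% of genes reach. Egr2, Nr4a1 and Nr4a2 had 3 copies each, Egr1 and Ier5 had 2, and Ier2 had 0, where the median gene has 2 and 70.0% of genes have at least 1. Per kb of this region Egr3 had 2.65 copies and Nr4a3 had 1.62, within the range of the uncalled members, from 0 for Ier2 to 5.52 for Nr4a1 and 8.16 for Ier3. CACACACA, a stretch of the CA repeats that hnRNPL is known to bind, was found in the 3′ untranslated region of 13.6% of genes. It was found in Egr3 (1 match) and Nr4a2 (17 overlapping matches) and in no other member. Neither RNA stability nor hnRNPL binding was measured in these libraries.

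The genes with the most similar profile over the 6 libraries were sought for each member by the root mean square difference of centred log2 values, among tested genes whose mean reached 50 normalized counts. For Egr3 these were Gm10524 (0.0843) and Fam120c (0.129), and for Nr4a3 the nearest was the myosin Myo1g (0.0832). The profile of Egr1 was closest to Gstz1 (0.0247) and Erich1 (0.0268), and that of Egr2 to Cstb (0.0515) and Gpx4-ps2 (0.0606). Nr4a1 was closest to Sfxn4 (0.0688) and Tmem161a (0.0719), and Nr4a2 to Cbx3-ps7 (0.0713) and Hmgb1-ps7 (0.0742). Ier2 was closest to Galk1 (0.0249) and Gm19412 (0.0352), Ier3 to Gm10357 (0.0916) and Gm11362 (0.104), and Ier5 to Dcaf11 (0.0370) and Unc93b1 (0.0396). No member was among these nearest genes of another member, but this says little about shared profiles. Only the 2 nearest of at least 13881 genes were kept per member. Nr4a2 and Ier3, whose means lay under 50, could not appear. With 6 libraries such likeness is a description, and the pseudogenes named can share reads with their parent genes.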

How the data were processed

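RNA-seq of activated splenic B cells from 3 WT and 3 hnRNPL-deficient libraries was analysed; groups were taken from the submitters' genotype labels. The 9 members and the gene lists were chosen with earlier results of these data known.

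Per the methods and the submitters' processing notes, the authors trimmed reads with fastp 0.23.1, aligned them to mm10 with STAR 2.7.9a, counted them per gene and strand with featureCounts, and divided the counts by DESeq2 (1.38.2) size factors. The deposited table gives them per library as a signal, in normalized counts. The deposited table also holds the authors' own DESeq2 comparison (log2 fold changes, errors, statistics, p-values), which was not used. In each library 100% of values were whole reads within 0.001 reads. Few reads, and so large counting errors, lie behind Nr4a2, Egr4, Ier3 and Rgs1.

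limma 3.58.1 (R 4.3.3) was fitted with a mean-variance trend to log2(normalized count + 1) of genes with a mean of at least 10, and calls required a Benjamini-Hochberg adjusted p under 0.1 and 1.5-fold. Fold changes on this scale understate changes of low genes. The scripts were tested on simulated data. edgeR 4.0.16 (quasi-likelihood, TMM) and DESeq2 1.42.0 were run on the reads recovered for 5 libraries, without hnRNPL-deficient library 2, because its reads are worth 1.01 normalized counts each, so close to 1 that the automatic check of whole reads does not recognise the step, although its values are whole multiples of it; this was decided after seeing the data. Other alternatives were pseudocounts, filters, scalings, a replicate block and leaving out each library. Ratios and single values were tested by two-sided exact permutation.

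Named genes were the members, Hnrnpl, Egr4, Nab1, Nab2, Srf, Rxra, Rxrb and Rxrg (the last 3 chosen after their values were seen), the called genes of the lists (at most 8 per list, by size) the 2 nearest profiles per member, of which 1 is not reported here, and listed cell type markers. Coordinates, exons and 3′ untranslated regions are from GENCODE M21 on GRCm38, and promoters from RefSeq.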

Additional observations from a re-analysis of the deposited data

How the results depend on the processing

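In 16 alternatives 0 members were called higher in each and 2 or 3 lower, and Egr3 and Nr4a3 kept direction and call in all 16. Leaving out 1 library, the log2 fold change of Egr2 ran from -0.043 to 0.24 and changed sign, that of Nab2 ran from -0.22 to 0.049, and the Ier3 to Ier2 log2 ratio ran from -0.36 to 0.030. Ier2 ran from -0.67 to -0.30, was called without hnRNPL-deficient library 2, and was called on 5 libraries by edgeR (-0.62) and DESeq2 (-0.64), which lack that library too. Ier3 could not be fitted at a mean of at least 50, where it is filtered out. The genes called higher numbered 850 to 1124 with 1 library left out (850 without WT library 3), against 1284, and list genes called lower numbered 2 to 8 (2 without WT library 2, 3 without WT library 3), against 7. The cause of these shifts was not tested. edgeR called 1144 higher and 578 lower genes, and DESeq2 1180 and 721. Equal library totals shifted the median log2 fold change by 0.055 and quantile normalization by -0.058. Reads limit Nr4a2, with 5 to 14 per library.

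The replicate numbers shared by the groups were not used as pairs in the main test. Deviations of same-numbered libraries correlated at 0.429, 0.320 and 0.0663. WT libraries 1 and 2 correlated best with the library of their own number, but WT library 3 did so with hnRNPL-deficient library 2 (0.305). With a replicate block 1755 genes were called higher and 1018 lower, against 1284 and 719. Again 0 members were called higher and 2 lower, and the lists had 8 genes called higher and 8 lower. The limma adjusted p fell to 0.0178 for Egr1, 0.0464 for Ier2 and 0.0307 for Ier5, which stayed under the fold threshold.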
